A study of Homo sapiens with 16 samples.

Results

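The virus by time interaction asked whether the effect of an adenovirus carrying GPI-PLD on gene expression differed between 6 h and 12 h in HepG2 cells. For every gene it was the change from 6 h to 12 h under the GPI-PLD virus minus the change from 6 h to 12 h under the LacZ virus, on log2 signals. A value above 0 means that the GPI-PLD effect was higher at 12 h than at 6 h, and a value below 0 that it was lower. All 22215 non-control probe sets of the 22283 on the array belonged to the comparison, and it used all 16 arrays. The main fit read 8102 of the 11963 genes that had a probe set with 1 symbol, each by its brightest such probe set with a signal of at least 188.

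HepG2 is a human hepatoma cell line that makes many plasma proteins of the liver. The cells had been transduced with a recombinant adenovirus that expressed either LacZ, the beta-galactosidase control, or GPI-PLD, and were cultured for 6 h or for 12 h. Each of the 4 groups (LacZ 6 h, GPI-PLD 6 h, LacZ 12 h and GPI-PLD 12 h) had 4 arrays, made from 10 µg of total RNA each. All groups carried a virus, so there was no group of cells without one. The promoter of the vectors, the virus dose and whether a group's arrays stem from different cultures are not in the labels. The p-values therefore measure the spread between these samples, which may be technical.

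GPI-PLD is a phospholipase of blood plasma, made mainly in the liver, that cuts the glycosylphosphatidylinositol (GPI) anchor by which many proteins are held at the cell surface. The cut releases the protein and leaves phosphatidic acid in the membrane, a lipid that can be turned into diacylglycerol. Liver cells are also the place of triglyceride synthesis and lipoprotein assembly, and acute phase, stress and cell cycle genes of HepG2 cells respond to handling and to time in culture.

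The hepatocyte markers were bright in all groups: 17 of 17 measured markers passed the filter, and their summed signal lay between 593809 and 717424 over the 16 arrays. The median interaction of these markers was -0.02, 0 were called and 2 had an unadjusted p under 0.05, beside 7.53% of all tested genes. The 5 tested fibroblast markers had a median interaction of 0.55 and the 4 tested lymphocyte markers one of 0.70, at summed signals of 1571 to 2934 and of 1591 to 3038 for the whole lists, so these probe sets were dim. The 2 tested macrophage markers had a median of 0.03. Their whole list summed to 5984 to 14175, and its brightest marker had a mean signal of 9632. The 2 tested kidney epithelial markers had a median of 0.37, and the 1 tested endothelial marker stood at 0.38. No marker was at 0, and the part of such markers in the results was not tested. The median signal of an array ran from 304.5 to 377.6. It was 338 to 378 on the GPI-PLD 12 h arrays. On the LacZ 6 h, GPI-PLD 6 h and LacZ 12 h arrays it was 304 to 345, 313 to 337 and 323 to 352. The part of this difference in the interaction values was not tested. The mean correlation of an array with the others of its group was 0.942 to 0.945 for the 4 GPI-PLD 12 h arrays. It was 0.954 to 0.966 in the other groups, and the GPI-PLD 12 h group enters every interaction value. The 3' to 5' signal ratio of GAPDH, a sign of RNA quality, lay between 0.864 and 1.12. The same ratio of ACTB spread more, from 1.1 on LacZ 12 h replicate 4 to 1.77 on GPI-PLD 12 h replicate 3. GPLD1, the gene of the GPI-PLD enzyme, had 5 probe sets with interaction values from -0.71 to 0.39 and standard errors of 0.31 to 0.62, and none was called. Its tested probe set had mean signals of 260 and 284 in LacZ and GPI-PLD cells at 6 h and of 319 and 328 at 12 h. The labels do not say which part of the GPLD1 transcript the virus carried.

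One gene passed the interaction test: TUBB2A, which encodes a beta tubulin, a building block of microtubules. Its GPI-PLD effect turned around between the times, from higher at 6 h to lower at 12 h. EIF3L, a subunit of translation initiation factor eIF3, took the same course and stood just outside the threshold. TUBB2A and EIF3L were also the 2 genes (0.0247% of 8102) that passed the time test in both viruses in opposite directions. They rose from 6 h to 12 h in LacZ cells and fell in GPI-PLD cells.

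TUBB2A signals at 6 h were 2609, 2807, 2720 and 2537 in LacZ cells, against 3519, 3246, 3407 and 3725 under GPI-PLD. By 12 h they were 3299, 3904, 3268 and 3354 in LacZ cells, against 2274, 2362, 2022 and 3009 under GPI-PLD. All 4 GPI-PLD arrays lay above all 4 LacZ arrays at 6 h and below all of them at 12 h, and within each virus the 2 times did not overlap. The virus effect was 0.37 ± 0.11 at 6 h and -0.52 ± 0.11 at 12 h (log2 ± SE), and neither passed at its own time (limma adjusted p 0.855 and 0.159). With time TUBB2A rose in LacZ cells, by 1.29-fold (log2 0.36 ± 0.11, adjusted p 0.0369), and under GPI-PLD it fell, 1.44-fold (log2 -0.53 ± 0.11, adjusted p 0.00184). The interaction was -0.89 ± 0.15, with a 95% interval from -1.20 to -0.58, and its adjusted p was 0.0384 by limma over 8102 genes.

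The TUBB2A call was narrow. Of the 16 fits that each left out 1 array, 4 kept it (those without LacZ 6 h replicate 1, GPI-PLD 6 h replicate 1 and GPI-PLD 12 h replicates 2 and 4), at adjusted p-values of 0.00169 to 0.0448. The 12 others, each without one of the remaining arrays, gave adjusted p-values from 0.0523 to 0.164, while the value itself stayed between -1.0 and -0.81. Quantile normalization (0.0635), 75th percentile scaling (0.119) and a plain eBayes fit without trend and robust (0.196) also ended the call. TUBB2A had 1 probe set that carried its symbol alone. Probe sets with several symbols were not assigned to a gene, so whether another one reads TUBB2A was not examined.

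EIF3L signals were brighter, at 13987, 12352, 11124 and 10774 in LacZ cells at 6 h and 16616, 18019, 15746 and 15441 at 12 h. The GPI-PLD arrays read 12241, 13251, 17286 and 16357 at 6 h and 10247, 11309, 11754 and 12423 at 12 h. At 12 h every GPI-PLD array was below every LacZ array, whereas at 6 h the groups overlapped. EIF3L rose in LacZ cells (log2 0.45 ± 0.10, adjusted p 0.0072) while its signal fell under GPI-PLD (-0.36 ± 0.10, adjusted p 0.0285). Its interaction of -0.81 ± 0.15 had an adjusted p of 0.0548 and was past the threshold in 4 of 27 other settings, among them the fits without LacZ 6 h replicate 1 (0.037) and without GPI-PLD 6 h replicate 1 (0.0217). The opposite time calls depended on the setting as well. The TUBB2A rise in LacZ cells was called in 16 and the EIF3L fall in GPI-PLD cells in 19 of 26 alternatives, whereas the TUBB2A fall and the EIF3L rise were called in 26 of 26.

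**Figure D1:**
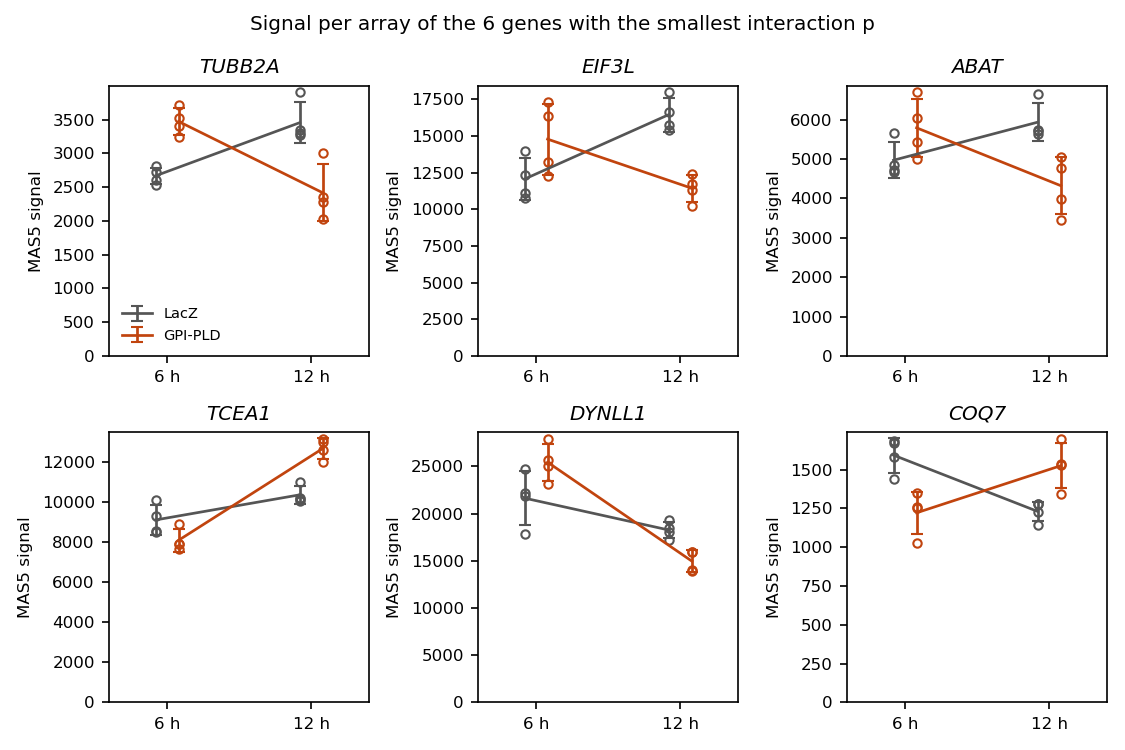
Signal of each array (circles; MAS5 units, axis from 0) at 6 h and 12 h for the 6 genes with the smallest interaction p, LacZ in grey and GPI-PLD in orange, with the mean of 4 arrays and its SD. In all 6 panels the lines cross, and in TUBB2A and COQ7 the arrays of the viruses are apart at both times.

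The promoter of TUBB2A is shown because it is the gene that passed. The RefSeq promoter table used here (GRCh38.p14) was searched for TUBB2A and EIF3L and matched 1 of the 2. The TUBB2A stretch lies at chr6:3157545-3157794 on the minus strand, the 250 bases before the start of the gene, printed from 5′ to 3′ with motif matches in capitals.
TUBB2A: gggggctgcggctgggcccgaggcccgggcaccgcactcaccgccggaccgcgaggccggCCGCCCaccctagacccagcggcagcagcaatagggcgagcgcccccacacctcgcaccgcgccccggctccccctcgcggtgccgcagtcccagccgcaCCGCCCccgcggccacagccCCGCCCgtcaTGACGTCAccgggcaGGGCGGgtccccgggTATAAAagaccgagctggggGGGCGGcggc
The stretch is 79.2% G and C. Searched on both strands, it held 1 TATA box (TATAAA, 30 bases before the start), 5 GC boxes (GGGCGG) and 1 cyclic AMP response element (TGACGTCA, 60 bases before the start), with no overlap between matches. It held no CCAAT, no CACGTG, no TGAGTCA and no TGATGCAA. Of 35116 promoters of the same length, 10.7% held TATAAA, 42.6% GGGCGG and 1.65% TGACGTCA, against 32.0% for CCAAT, 6.34% for CACGTG, 4.2% for TGAGTCA and 0.772% for TGATGCAA. These are descriptions of letters in a window, and nothing on binding was measured.

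The other tested members of both gene families gave smaller values. Of the alpha, beta, gamma and delta tubulins 14 were tested. The 13 tested members besides TUBB2A had interaction values between -0.21 (TUBA1A, an alpha tubulin) and 0.30 (TUBB4A, a beta tubulin), all with intervals that include 0. The brightest, TUBA1B, stood at 0.11 ± 0.12, TUBB at 0.17 ± 0.11 and TUBB2B, the closest paralogue of TUBB2A, at 0.15 ± 0.24. TUBB2B rose with time in both viruses (log2 0.59 and 0.74, adjusted p 0.0358 and 0.00621). The list had 8 members above and 6 below 0 and a median of 0.06, which was -0.02 after quantile normalization, beside 0.00 over all genes. TUBB2A and TUBB2B are near-identical copies, so their probe sets may share RNA.

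Of 12 tested eIF3 subunits, 8 were above and 4 below 0, with a median of 0.06. The 11 subunits besides EIF3L lay between -0.11 (EIF3B) and 0.27 (EIF3J, at 0.27 ± 0.12, unadjusted p 0.0394). EIF3D was at 0.22 ± 0.13 and EIF3E, the brightest, at 0.11 ± 0.10. The subunits sit in one complex that brings messenger RNA to the small ribosomal subunit, and EIF3L alone among them was called with time in LacZ cells. Of the 29 other translation factors tested, 17 were above and 12 below 0 (median 0.03) and 0 were called. EIF5, which triggers GTP hydrolysis at the start codon, had 0.35 ± 0.11, and the arrays of the viruses were apart at both times. ETF1, the termination factor, had -0.35 ± 0.14, and EIF5A, the hypusine-modified elongation factor, -0.67 ± 0.29.

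**Figure D2:**
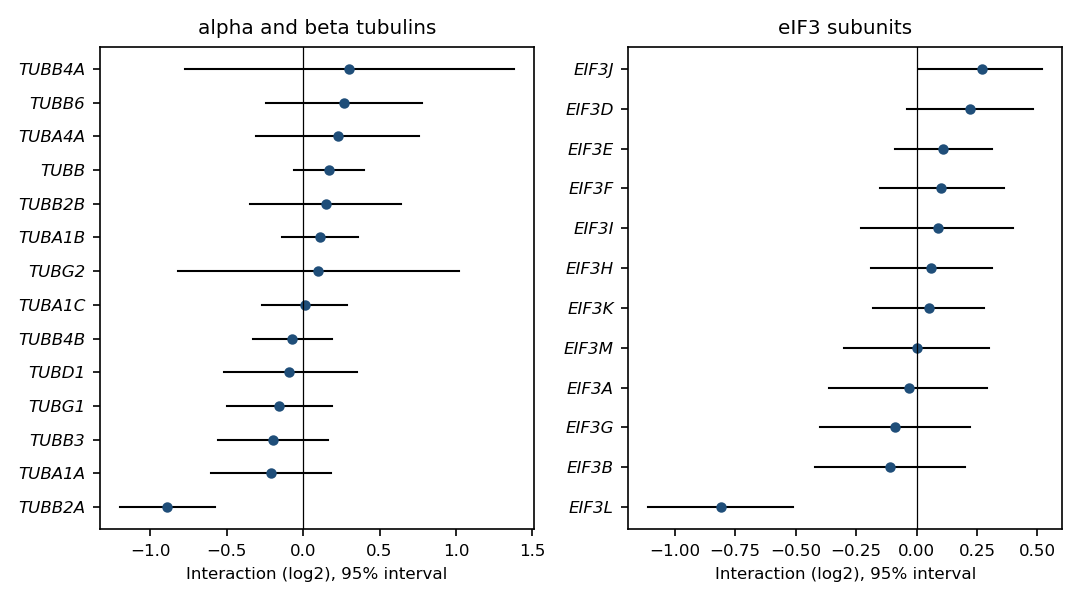
Interaction with its 95% interval (log2; 0 marked) for the 14 tested tubulins and the 12 tested eIF3 subunits. TUBB2A at -0.89 and EIF3L at -0.81 stand apart from members that lie between -0.21 and 0.30.

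Over all 8102 genes the interaction was centred on 0. The median was 0.00, with 4075 genes above and 4027 below, and the 5th and 95th percentiles were -0.54 and 0.63 on the log2 scale. The test called 1 gene (0.0123%). At an unadjusted p under 0.05 it held 610 genes (7.53%), where 5% of the genes would be 405.1. Of these, 319 (3.94%) were below and 291 (3.59%) above 0. The share below 0 was 52.3% as deposited and 51.0% after quantile normalization. It was 38.3% after scaling to the 75th percentile, which raised the median of all genes to 0.04. A plain eBayes fit called 0 genes and had 591 at an unadjusted p under 0.05.

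The precision differed with the signal. The median 95% interval reached 0.50 log2, or 1.41-fold, to each side. For 5661 genes (69.9%) the interval lay within 2-fold and for 2901 (35.8%) within 1.5-fold. Among the 2026 brightest genes, with signals of at least 2144, these shares were 98.2% and 79.4%. The 95% interval of these bright genes reached a median of 0.30 to each side and their median interaction was -0.01, against 1.02 and 0.11 among an equal share of the dimmest genes. With this number of arrays, a difference smaller than the reach of its gene's interval was not told apart from 0 even before adjustment. A call after adjustment asked for more: 610 genes had an unadjusted limma p under 0.05, and 1 was called.

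Much of the change with time was shared by the viruses. From 6 h to 12 h 558 genes (6.89%) were called in LacZ cells, 295 up (3.64%) and 263 down (3.25%). In GPI-PLD cells 784 (9.68%) were called, 373 up (4.6%) and 411 down (5.07%). Both contrasts called 339 genes, which is 60.8% of the LacZ and 43.2% of the GPI-PLD calls, and 337 of them moved the same way. Across genes the time changes had a Pearson r of 0.417 and a Spearman rho of 0.378. These 2 contrasts share no array, but genes are not independent replicates. The same sign was found in 63.9% of genes.

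Genes called in both viruses in the same direction had interaction values centred near 0. The classes given here were formed from the 2 time changes whose difference is the interaction. Its sign and median in a class follow partly from that choice. The 183 genes that rose in both had a median interaction of 0.04, and the interval lay within 2-fold for 97.8% of them. The 154 that fell in both had a median of -0.01, with 97.4% within 2-fold. Of the 110 genes that rose in LacZ cells only, 39 had an interaction p under 0.05 and 0 were called (median -0.35). Of the 190 that rose in GPI-PLD cells only, 63 had an interaction p under 0.05 and 0 were called (median 0.29). The 109 and 255 genes that fell in LacZ cells only and in GPI-PLD cells only had 23 and 83 (medians 0.22 and -0.27), and 0 of either were called. A call in 1 virus alone therefore did not show that the time change differed between the viruses.

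**Figure D3:**
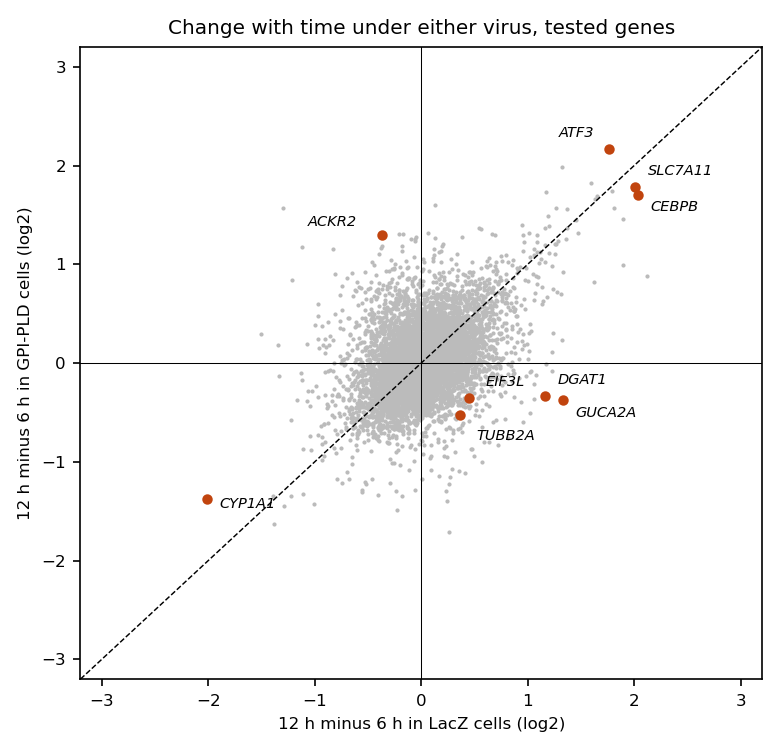
Change from 6 h to 12 h (log2) in LacZ cells (horizontal axis) against GPI-PLD cells (vertical axis), 1 point per tested gene, with the dashed line of equal change. CEBPB, SLC7A11 and ATF3 lie up in both viruses and CYP1A1 down in both, and TUBB2A and EIF3L lie in the lower right part, up in LacZ and down in GPI-PLD cells.

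The 24 genes with the smallest interaction p had 16 values below and 8 above 0. Apart from TUBB2A and EIF3L, each had an adjusted p of 0.376. The virus effects at 6 h and 12 h had opposite signs in 24 of 24, against 55.3% of all genes, and a choice by interaction p favours such genes. The arrays of the viruses did not overlap at 6 h in 8 of the 24 (3.02% of all tested genes) and at 12 h in 16 (3.99% of all). Across all genes the arrays were apart at both times in opposite orders in 11 (0.136%), and in the same order in 3 (0.037%). The 11 were TUBB2A, OS9, CIDEB, YWHAE, SSNA1 and EPHB4, higher under GPI-PLD at 6 h and lower at 12 h, and COQ7, EIF5, RHEB, B2M and TUBGCP4, lower and then higher. SSNA1, EPHB4, RHEB, B2M and TUBGCP4 were named after their values were seen.

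**Figure D4:**
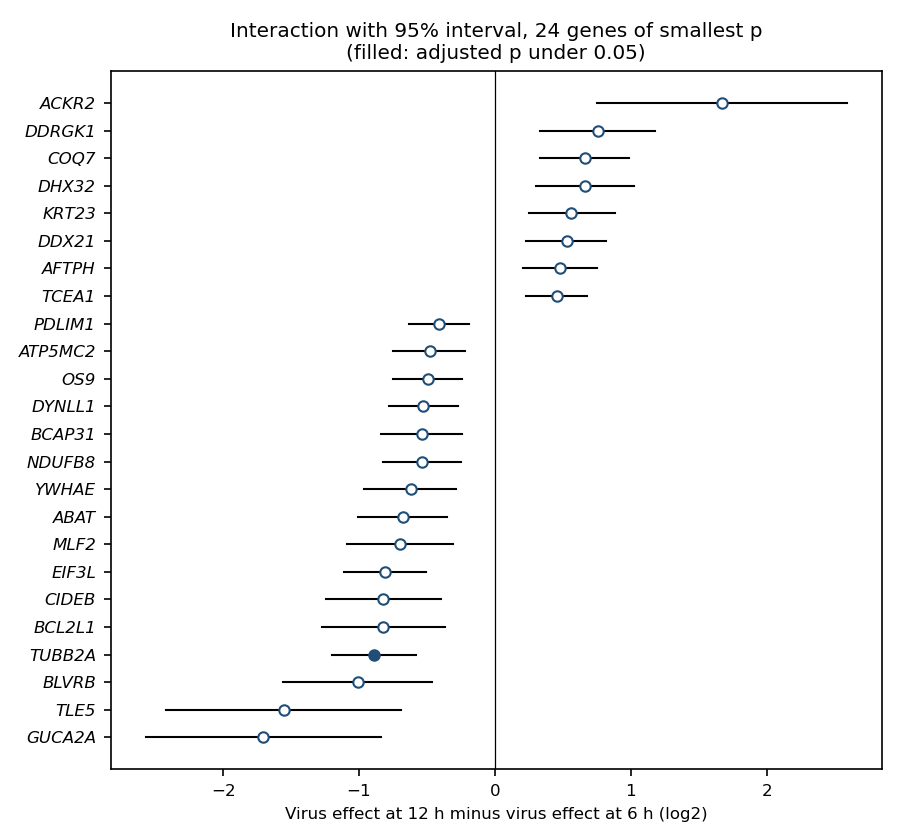
Interaction with its 95% interval (log2) for the 24 genes with the smallest p, ordered by value (filled circle: adjusted p under 0.05). The 8 genes above 0 run from TCEA1 at 0.46 to ACKR2 at 1.67, and the 16 below from PDLIM1 at -0.41 to GUCA2A at -1.71.

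Of the 24 leading genes, OS9 and BCAP31 lay below 0 and DDRGK1 above 0, and all 3 act at the endoplasmic reticulum. OS9, a lectin that hands misfolded glycoproteins to degradation, read 3051, 3126, 3271 and 2727 in LacZ and 3625, 3583, 3649 and 3955 in GPI-PLD cells at 6 h. At 12 h it read 4390, 5037, 5327 and 4634 in LacZ and 4271, 4286, 4227 and 3854 in GPI-PLD cells. The GPI-PLD arrays were above the LacZ arrays at 6 h and below them at 12 h, with no overlap at either time. OS9 rose in LacZ cells (log2 0.66 ± 0.09, adjusted p 1.49e-05) and stood at 0.16 ± 0.09 in GPI-PLD cells, with an interaction of -0.49 ± 0.12. Its other, dimmer probe set had -0.21 ± 0.20. BCAP31, a chaperone of membrane protein export, fell in GPI-PLD cells (-0.53 ± 0.10, adjusted p 0.00139) and was at 0.02 ± 0.10 in LacZ cells, giving -0.54 ± 0.14. DDRGK1, which anchors the UFMylation ligase at the reticulum, lay on the other side at 0.76 ± 0.21.

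The list of unfolded protein response and endoplasmic reticulum folding genes as a whole did not follow OS9. It had 15 of 27 members above 0 and a median of 0.02. With time 9 of its members rose in LacZ and 9 in GPI-PLD cells, beside 3.64% and 4.6% of all tested genes. SEC61B, a subunit of the translocation channel, had 0.43 ± 0.16 and SEL1L, the scaffold of the same degradation complex as OS9, 0.32 ± 0.14. For SEL1L the mean of its probe sets had the other sign, -0.21.

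The leaders COQ7, NDUFB8 and ATP5MC2 encode mitochondrial proteins, and their values had different signs. COQ7, which hydroxylates the precursor of ubiquinone, read 1683, 1581, 1439 and 1669 in LacZ and 1257, 1347, 1028 and 1255 in GPI-PLD cells at 6 h. At 12 h the values were 1276, 1143, 1276 and 1226 in LacZ and 1695, 1340, 1538 and 1528 in GPI-PLD cells. Here the order was the reverse of OS9, lower under GPI-PLD at 6 h and higher at 12 h, with no overlap at either time. The interaction of COQ7 was 0.66 ± 0.16. Its other probe sets gave 0.02 ± 0.22 and 0.43 ± 0.47. NDUFB8, a complex I subunit, had -0.54 ± 0.14, while its other probe sets gave 0.18 ± 0.17 and 0.22 ± 0.33. ATP5MC2, which forms the rotor ring of ATP synthase, fell in GPI-PLD cells (-0.46 ± 0.09, adjusted p 0.00146) and was at 0.02 ± 0.09 in LacZ cells, giving -0.48 ± 0.13.

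Among the respiratory chain lists, 21 of 28 complex I genes, 17 of 27 genes of complexes II, III and IV and 12 of 16 ATP synthase genes were below 0, with medians of -0.09, -0.08 and -0.07. Interaction calls numbered 0 in each, and 2, 3 and 2 members had an unadjusted p under 0.05, beside 7.53% of all tested genes. COX7C, a small subunit of cytochrome c oxidase, had -0.42 ± 0.12. Its arrays read 15008, 15977, 16603 and 16209 under GPI-PLD at 6 h and 10748, 10709, 11364 and 12681 at 12 h, against 12656 to 16339 in the 8 LacZ arrays. At 12 h every GPI-PLD array was below every LacZ array, and at 6 h the groups overlapped. The fall in GPI-PLD cells was called (-0.49 ± 0.08, adjusted p 0.00034). Other COX7C probe sets, at -0.08 ± 0.19 and -0.10 ± 0.19, differed by less. UQCR11 of complex III and COX11, a copper chaperone of complex IV, both stood at -0.42 ± 0.14, NDUFA1 at -0.32 ± 0.13 and the ATP synthase gene ATP5MC1 at 0.41 ± 0.19. With time 4 complex I genes fell in LacZ and 12 in GPI-PLD cells, and over the alternatives these counts ran from 3 to 8 and from 7 to 12. The shares of all tested genes that fell were 3.25% in LacZ and 5.07% in GPI-PLD cells.

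Ubiquinone synthesis genes had 6 of 8 members below 0 and a median of -0.18, so COQ7 went against its list. COQ3, a methyltransferase of the pathway, had -0.56 ± 0.25 and COQ9, the partner of COQ7, -0.22 ± 0.17. Mitochondrial ribosomal proteins had 32 of 47 below 0 (median -0.06), led by MRPL24 at -0.40 ± 0.16.

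Of the lipid lists, fatty acid and triglyceride synthesis and cholesterol synthesis had medians below 0 under each scaling, whereas fatty acid oxidation and ketone synthesis was split 13 to 13 (median 0.00). Of 20 tested genes of fatty acid and triglyceride synthesis 15 were below 0, with a median of -0.18, and 5 had an unadjusted p under 0.05, all below 0, while 0 were called. Over all tested genes 7.53% had such a p, and 3.94% had it with a value below 0. The median of the list stayed below 0 under both other scalings, at -0.16 and -0.14. DGAT1, which makes the last step of triglyceride synthesis, read 242, 83.1, 373 and 147 in LacZ cells at 6 h and 584, 584, 774 and 541 in GPI-PLD cells. At 12 h the values were 347, 472, 628 and 616 in LacZ and 293, 480, 447 and 779 in GPI-PLD cells. The arrays were apart at 6 h and overlapped at 12 h. Its interaction was -1.50 ± 0.42 (adjusted p 0.381). PNPLA3, a lipid droplet hydrolase, had -0.93 ± 0.39, and ELOVL6, a fatty acid elongase, -0.42 ± 0.18. ACACA, ACLY and FASN, which lead from citrate to palmitate, had -0.46 ± 0.21, -0.24 ± 0.11 and -0.21 ± 0.20.

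CIDEB, which adds lipid to nascent very low density lipoprotein, was the leader of the lipoprotein list. It read 1861, 1910, 1795 and 1361 in LacZ and 2158, 2710, 2236 and 1972 in GPI-PLD cells at 6 h. At 12 h it read 2150, 2243, 2369 and 2779 in LacZ and 2075, 1449, 2146 and 1399 in GPI-PLD cells. The arrays did not overlap at either time, and the order turned around (interaction -0.82 ± 0.20). APOC3, an inhibitor of lipoprotein lipase, had -0.47 ± 0.17 and PON3, an esterase of high density lipoprotein, 0.51 ± 0.16. The 22 tested members of the list were split 9 to 13 around 0, with a median of -0.02 that was 0.02 after 75th percentile scaling. Cholesterol synthesis genes had 13 of 17 below 0 (median -0.09), with TM7SF2, a sterol reductase, at -0.46 ± 0.20.

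The interaction test called no gene of GPI anchors. Of 24 tested genes of GPI anchor synthesis 10 were above and 14 below 0 (median -0.05), and 1 had an unadjusted p under 0.05: PIGN, which adds ethanolamine phosphate to the first mannose of the anchor, at -1.57 ± 0.66. DPM3, a subunit of the enzyme that makes the mannose donor, had -0.37 ± 0.27 and PIGT, of the transamidase that attaches the anchor, -0.58 ± 0.44. The 30 tested genes of GPI-anchored proteins, which are the substrates of GPI-PLD, were split 15 to 15 with a median of 0.02. Over all tested genes 7.53% had an unadjusted p under 0.05, 3.59% above and 3.94% below 0. In this list 3 members had such a p, all above 0.

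CD48, an adhesion receptor of white blood cells, was one of these. Its signals of 257, 370, 349 and 293 in LacZ cells at 12 h lay below the 739, 426, 761 and 371 of GPI-PLD cells. At 6 h the ranges of 367 to 526 and 138 to 502 overlapped. The interaction was 1.07 ± 0.41 (adjusted p 0.514). RECK, a membrane inhibitor of metalloproteases, had 0.75 ± 0.31 and PLAUR, the urokinase receptor, 0.70 ± 0.31. As the mean of their probe sets these were 0.18 and 0.00. Genes of diacylglycerol and phosphatidic acid signalling had 11 of 24 above 0 (median -0.05), and none reached an unadjusted p under 0.05. Its smallest p belonged to PRKCH, a protein kinase C, at 1.15 ± 0.59.

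Immediate early genes, which respond within minutes to growth and stress signals, gave no interaction call, and many of them rose with time. In LacZ cells 15 of 25 were called up and in GPI-PLD cells 10, with 8 shared. Over the alternatives these counts ran from 11 to 16 and from 9 to 12. Among all tested genes 3.64% rose in LacZ and 4.6% in GPI-PLD cells. Their time change had a median of 1.03 under LacZ and of 0.64 under GPI-PLD. The median interaction was -0.07, with 11 members above and 14 below 0 and 0 called. The values ran from -1.27 to 1.57, and 2 members above 0 and 4 below had an unadjusted limma p under 0.05. Over all tested genes 3.59% had such a p above and 3.94% below 0. FOSL2, an AP-1 subunit, read 118, 144, 124 and 65.8 in LacZ and 283, 348, 491 and 401 in GPI-PLD cells at 6 h. All GPI-PLD arrays were higher there, and at 12 h the GPI-PLD range of 214 to 445 enclosed the LacZ arrays. Its interaction was -1.27 ± 0.41, and its other probe sets gave -0.72 ± 0.42 and -0.09 ± 0.52.

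NAB2, a corepressor of EGR factors, had -1.25 ± 0.43. It rose in LacZ cells (log2 2.12, adjusted p 5.92e-05) from 266, 77.8, 282 and 49.8 to 697, 881, 836 and 943. In GPI-PLD cells, where it went from 410, 263, 624 and 329 to 752, 740, 614 and 1005, the change of 0.88 did not pass (adjusted p 0.076). EGR1 itself rose in both (1.14 and 0.62, adjusted p 4.98e-06 and 0.0044), with an interaction of -0.51 ± 0.19, while its dimmer probe set had 0.18 ± 0.26. MYC, MAFF, IER2, IER3 and DUSP1 rose in both viruses as well, with interaction values between -0.10 and 0.21.

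Genes that answer to a shortage of amino acids, many of them targets of ATF4, gave no interaction call, and most of its members rose in both viruses. Among all tested genes 3.64% were called up in LacZ and 4.6% in GPI-PLD cells. Of 37 tested members of the list 25 were called up in LacZ and 25 in GPI-PLD cells, 24 of them in both. The median time change was 0.68 and 0.77, and the median interaction 0.03. SLC7A1, a transporter of cationic amino acids, had 0.38 ± 0.13, CEBPB, a C/EBP factor that drives acute phase genes, -0.33 ± 0.12 and INHBE, a liver activin subunit, 0.42 ± 0.18. For SLC7A1 the mean of its probe sets was -0.05. The 95% intervals of CEBPB (-0.58 to -0.08) and INHBE (0.04 to 0.79) excluded a 2-fold difference between the viruses.

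Oxidative stress genes were split 13 to 14 (median 0.00), and 11 rose in LacZ and 10 in GPI-PLD cells (all tested genes: 3.64% and 4.6%). EPHX1, which hydrolyses epoxides, rose in LacZ cells (0.59, adjusted p 0.00535), where it went from 1136, 1382, 1532 and 1128 to 1639, 1945, 2418 and 1952. The GPI-PLD arrays read 1792, 2003, 1640 and 1780 at 6 h, all above the LacZ arrays, and 1517, 2039, 1826 and 1600 at 12 h, overlapping them. Its interaction was -0.64 ± 0.19. The reductases AKR1C1 and AKR1B10 stood on the other side, at 0.34 ± 0.11 and 0.40 ± 0.14. Metallothioneins fell in both viruses, 6 of 9 in each, with a median interaction of 0.05. Of all tested genes 3.25% fell in LacZ and 5.07% in GPI-PLD cells.

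**Figure D5:**
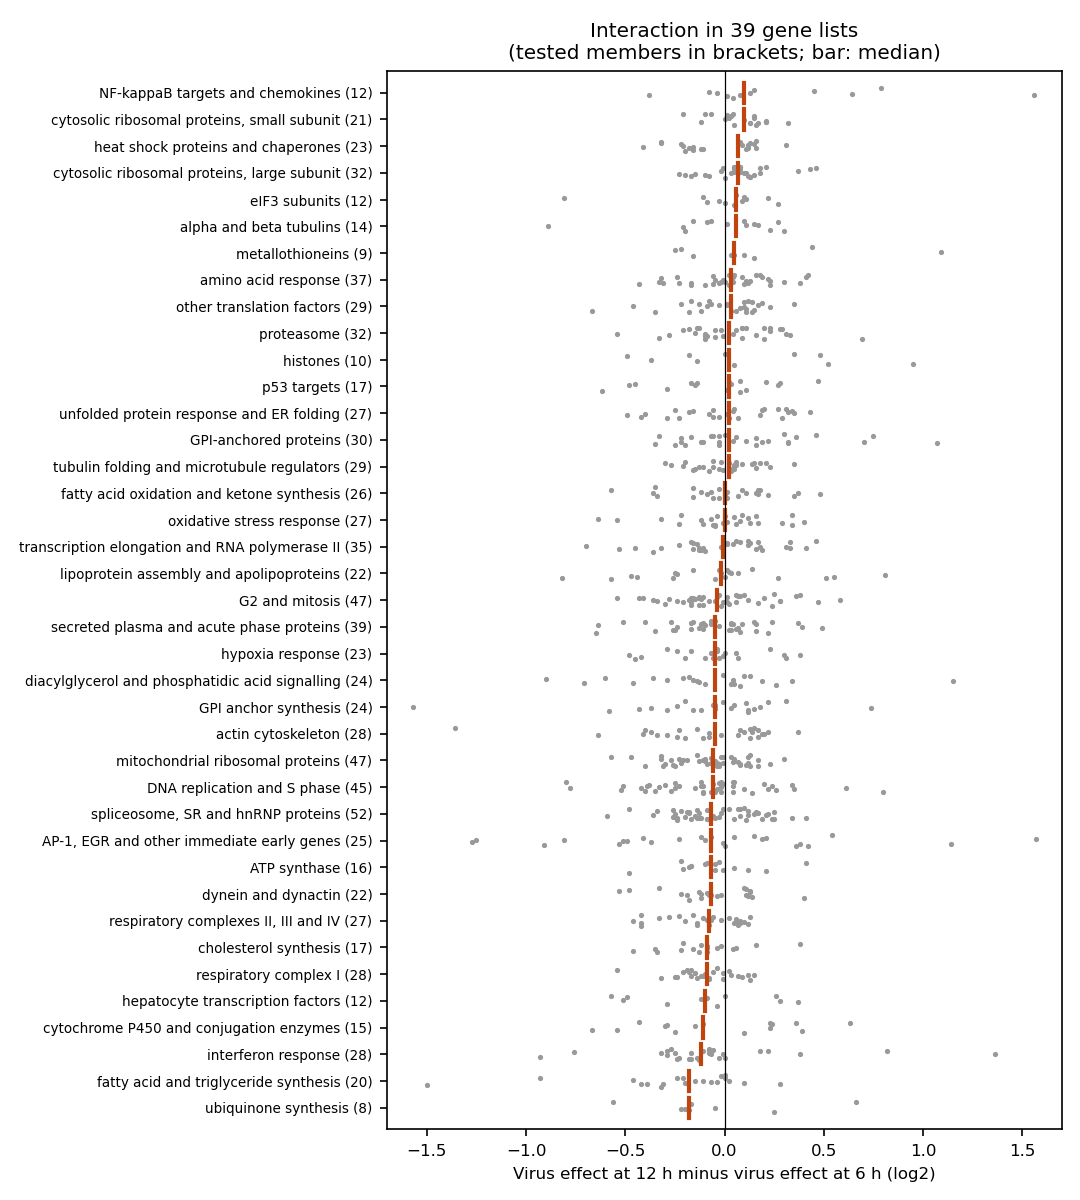
Interaction (log2) of every tested member of 39 gene lists (grey points; the number of tested members is in brackets) with the median of each list (orange bar), ordered by median. The medians run from -0.18, in ubiquinone and in fatty acid synthesis, to 0.10, and the points of every list lie on both sides of 0.

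Ribosomal proteins were above 0 more often than below. The large subunit had 23 of 32 above 0 (median 0.07) and the small subunit 16 of 21 (median 0.10). After quantile normalization these counts were 19 and 11. RPL35A stood at 0.43 ± 0.13, RPL27A at 0.46 ± 0.18, RPL27 at -0.23 ± 0.10 and RPS18 at 0.32 ± 0.13. The mean of the RPL35A probe sets had the other sign, -0.43. These genes have many near-identical pseudogenes, so the assignment of their signal is uncertain.

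Many cell cycle genes fell with time in both viruses. Among 47 genes of G2 and mitosis 19 fell in LacZ and 26 in GPI-PLD cells, and among 45 genes of replication and S phase 16 and 23 fell. Of all tested genes 3.25% fell in LacZ and 5.07% in GPI-PLD cells. Over the alternatives the counts ran from 14 to 26 and from 20 to 29 for G2 and mitosis and from 12 to 20 and from 20 to 25 for S phase, so the ranges of the viruses overlapped or touched. The median interaction was -0.04 and -0.06, and 0 were called. TK1, the salvage kinase of thymidine, fell in GPI-PLD cells (-0.69, adjusted p 0.000936) and had -0.18 in LacZ cells, with an interaction of -0.51 ± 0.18. CDC25C, a phosphatase of mitotic entry, had -0.54 ± 0.21 and PTTG1, the securin of chromosome separation, 0.38 ± 0.16.

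Interferon response genes had 23 of 28 below 0, with a median of -0.12 and values of -0.17 and -0.09 after the other scalings. The 2 members with an unadjusted p under 0.05 were both above 0: PML, of nuclear bodies, at 0.82 ± 0.32 and HERC5, a ligase for ISG15, at 1.36 ± 0.54. PML had 7 other probe sets with values from -0.36 to 1.02, and the mean of its probe sets was 0.20. NF-kappaB targets and chemokines had 9 of 12 above 0 (median 0.10), with the cytokine genes IL1B at 1.56 ± 0.54 and CXCL8 at 0.79 ± 0.35 and the NF-kappaB subunit RELA at -0.38 ± 0.17. Over all 39 lists 986 different genes were tested, 1 was called (TUBB2A) and 9.94% had an unadjusted p under 0.05, beside 7.53% over all genes. The lists were chosen with earlier results of these data known.

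Cytoskeletal genes besides the tubulins gave no call. DYNLL1, a light chain of dynein, read 21851, 22162, 17842 and 24686 in LacZ and 25706, 23086, 27880 and 25071 in GPI-PLD cells at 6 h. At 12 h it read 19323, 17243, 18429 and 18030 in LacZ and 15943, 14020, 15935 and 13949 in GPI-PLD cells. The viruses overlapped at 6 h and were apart at 12 h, and the fall in GPI-PLD cells was called (-0.76 ± 0.09, adjusted p 2.09e-06). The LacZ change was -0.24 ± 0.09 and the interaction -0.53 ± 0.12. Of 22 dynein and dynactin genes 14 were below 0 (median -0.07), and CAPZB, an actin capping subunit of dynactin, had -0.48 ± 0.17 with its 3 other probe sets also below 0. Actin genes were split 13 to 15 (median -0.05), with MYL6, a myosin light chain, at -0.37 ± 0.12. PDLIM1, an adaptor of actin stress fibres, had -0.41 ± 0.11 and KRT23, a keratin, 0.56 ± 0.15.

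The 8 leaders above 0 included TCEA1, DDX21 and DHX32, while the list of transcription elongation genes was split 17 to 18 around 0 (median -0.01). TCEA1, an elongation factor that rescues stalled RNA polymerase II, read 8474, 9267, 10110 and 8527 in LacZ and 8917, 7622, 7874 and 7917 in GPI-PLD cells at 6 h. At 12 h the values were 10064, 10998, 10193 and 10136 in LacZ and 13106, 12568, 12986 and 11970 in GPI-PLD cells. All GPI-PLD arrays were higher at 12 h, and the groups overlapped at 6 h. TCEA1 rose in GPI-PLD cells (log2 0.64 ± 0.08, adjusted p 2.91e-06) against 0.19 ± 0.08 in LacZ cells, an interaction of 0.46 ± 0.11. DDX21, a helicase of ribosomal RNA processing, rose in GPI-PLD cells too (0.70 ± 0.10, adjusted p 4.58e-05) against 0.17 ± 0.10, an interaction of 0.53 ± 0.14. DHX32, another helicase, had 0.66 ± 0.18. HEATR1, a factor of ribosomal RNA transcription that was not among the 24 leaders, had 1.09 ± 0.31. Its other probe set, at a mean signal of 2436, gave 0.26 ± 0.17, and the mean of both gave 0.68. One array, GPI-PLD 6 h replicate 1, read HEATR1 at 3424 against 1374 to 1712 in its group, and without it the gene was called (adjusted p 0.0245).

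The remaining leaders below 0 came from several processes. ABAT, the transaminase of the transmitter GABA, had -0.68 ± 0.16, and its other probe sets gave -0.14 ± 0.23 and 0.09 ± 0.15. YWHAE, a 14-3-3 adaptor, had -0.62 ± 0.16, and its other probe set went the same way at -1.17 ± 0.38. BCL2L1, which blocks apoptosis as BCL-xL, rose in LacZ cells (0.68 ± 0.15, adjusted p 0.00664) and stood at -0.14 ± 0.15 in GPI-PLD cells. Its interaction was -0.82 ± 0.22, with its other probe sets at -0.44 ± 0.28 and -0.53 ± 0.27, and it was called without LacZ 6 h replicate 1 (adjusted p 0.0437). BLVRB, a biliverdin reductase, had -1.01 ± 0.26 and MLF2 -0.70 ± 0.19.

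The largest values belonged to dim genes. GUCA2A, a peptide hormone of the gut, read 98.7, 107, 82.4 and 106 in LacZ and 382, 518, 350 and 234 in GPI-PLD cells at 6 h. At 12 h the values were 220, 378, 394 and 415 in LacZ and 276, 191, 307 and 290 in GPI-PLD cells. Only at 6 h were the groups apart, and the interaction was -1.71 ± 0.42. ACKR2, a scavenging chemokine receptor, had 1.67 ± 0.44 and TLE5, a corepressor, -1.55 ± 0.42, with group mean signals of at most 395 and 654. AFTPH, a factor of vesicle traffic, was far brighter and stood at 0.48 ± 0.13.

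Genes called with time in 1 virus gave further large differences. NFE2L1, a transcription factor of proteasome genes, rose in GPI-PLD cells (0.60, adjusted p 0.00646) and was at -0.02 in LacZ cells, an interaction of 0.63 ± 0.20. Its other probe sets, at mean signals of 2877 and 2258, gave -0.01 ± 0.16 and 0.27 ± 0.16, and the mean of the probe sets was 0.30. SERINC5, a membrane protein that restricts retroviruses, fell in LacZ cells (-0.60, adjusted p 0.00693) and was at 0.04 in GPI-PLD cells (0.65 ± 0.19). PHACTR2, a phosphatase regulator, fell in GPI-PLD cells (-0.83, adjusted p 0.0107) and had an interaction of -0.74 ± 0.29, with its other probe sets at -0.68 ± 0.39 and -0.63 ± 0.21. SPTAN1, a spectrin, had -0.65 ± 0.24 and TMPRSS15, a protease of the gut, 0.66 ± 0.30.

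Other probe sets gave a mixed answer on the leaders. Of the 24 leading genes 7 had 11 other probe sets between them. Of these, 7 had the sign of the gene's own probe set, 1 of them with an unadjusted p under 0.05, and 4 had the opposite sign, 0 of them with such a p. Averaging all probe sets of a gene gave values nearer to 0 for many of the genes named: -0.24 for ABAT, 0.37 for COQ7, -0.05 for NDUFB8, -0.12 for ATP5MC2, -0.20 for COX7C and 0.15 for EIF5. The averages were -0.58 for NAB2, -0.70 for FOSL2, -0.17 for EGR1, -0.16 for MYL6, -0.26 for ACACA, -0.27 for ELOVL6, -0.21 for SPTAN1 and 0.05 for EPHB4.

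In the fit of all 22215 probe sets without a filter the test called 0, with 1536 (6.91%) at an unadjusted p under 0.05 where 5% would be 1110.8. A probe set of ERP44, a thiol chaperone of the secretory pathway, led it at 2.68 ± 0.45 (adjusted p 0.0593). Its signals were 151, 156, 210 and 164 in LacZ and 17.8, 80.9, 20.8 and 26.9 in GPI-PLD cells at 6 h. At 12 h the LacZ arrays read 104, 19, 32.7 and 30.6 and the GPI-PLD arrays 179, 199, 311 and 198. The order turned around with no overlap, but the other ERP44 probe sets, at mean signals of 542 and 4707, gave 0.35 ± 0.36 and 0.04 ± 0.17. A probe set of SMARCA1, a chromatin remodelling ATPase, had -1.38 ± 0.23 (adjusted p 0.0593), while its other probe sets gave 0.07 ± 0.13, 0.33 ± 0.32 and -0.65 ± 0.24. TUBB2A had an adjusted p of 0.0593 there as well.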

How the data were processed

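Affymetrix arrays measured total RNA of HepG2 cells in 4 groups of 4 (LacZ or GPI-PLD adenovirus, 6 h or 12 h). The authors deposited 1 linear MAS5 signal intensity per probe set and array, per the submitters' processing notes, and the scanner software version is not given in the sources used here. All 16 value columns were used and had trimmed means of 1000.3 to 1000.4, so no further scaling was applied. Replicates were numbered in accession order, since the labels give no number, and no batch is given.

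From the deposited intensity, log2(signal + 63) was computed, 63 being the 20th percentile of the whole table, which shrinks changes of dim genes. Of the non-control probe sets, 19065 had 1 gene symbol, 1043 several and 2107 none in the platform annotation. The brightest such probe set by mean log2 stood for its gene, and a filter at the 40th percentile of these means (signal 188) left 8102 genes. A 4-group model was fitted with limma 3.58.1 (lmFit, contrasts.fit, eBayes with trend and robust, statmod 1.5.0, R 4.3.3), with 12 residual degrees of freedom and, by median, 10.5 prior ones. Tested were the interaction, the time change in each virus and the virus effect at each time. Called means a p under 0.05 after Benjamini-Hochberg adjustment. A second fit took all 22215 probe sets. Tables and plots were made with Python 3.11.15, pandas 2.3.3, scipy 1.17.1 and matplotlib 3.10.9, and the fit was tested on simulated data.

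Genes were named by a rule: those that passed, the 24 with the smallest interaction p, those called with time in both viruses in opposite directions, the 6 up and 6 down with the largest interaction among brighter genes called in 1 time contrast, the up to 3 smallest p of each list described, and GPLD1. Other members of the tubulin, eIF3, lipid and immediate early lists, the genes whose arrays were apart at both times and the leaders among all probe sets were named after their values were seen. The members and lists were chosen with earlier results of these data known. Promoter motifs were searched by exact letters on both strands.

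The alternatives were other normalizations, pseudocounts and filters, averaged probe sets, array weights, eBayes without trend and robust, leaving out each array, and leaving out GPI-PLD 12 h replicates 2 and 4 together. Reading named genes in the fit of all probe sets, and applying the alternatives to the opposite time calls and to the count at an unadjusted p under 0.05, were added after seeing the data.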

Additional observations from a re-analysis of the deposited data

Results flagged for a closer look

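The virus effect on TUBB2A differed between 6 h and 12 h by the interaction test itself (log2 -0.89, limma adjusted p 0.0384).

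In 28 of 428 groups of 4 arrays, over the 107 genes followed, 1 array lay far from the other 3 by Dixon's ratio at its 95% critical value. Chance alone marks about 1 in 20 groups. Among the leading genes, TUBB2A read 3904 on LacZ 12 h replicate 2, the highest of its group, and TCEA1 was highest there as well at 10998. ABAT was highest on LacZ 12 h replicate 3 at 6664, and TLE5 lowest on LacZ 12 h replicate 1 at 415. OS9 was lowest on GPI-PLD 12 h replicate 4 at 3854. AFTPH was lowest on LacZ 6 h replicate 1 at 3606, and YWHAE lowest on LacZ 6 h replicate 4 at 2892.

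Among the other genes, GPI-PLD 6 h replicate 1 was highest for AKR1B10 (5698), HEATR1 (3424) and SEC61B (17268), and GPI-PLD 6 h replicate 4 was lowest for RELA (1400). LacZ 6 h replicate 1 was lowest for ATP5MC1 (2991), and LacZ 6 h replicate 2 highest for ACACA (2349) and TUBGCP4 (1774). LacZ 12 h replicate 2 was highest for IL1B (559) and RPL27A (2969). LacZ 12 h replicate 4 was lowest for EGR1 (2317) and TUBGCP4 (1119) and highest for MYL6 (12014) and NDUFA1 (6595). GPI-PLD 12 h replicate 2 was highest for the tested ERP44 probe set (5848), RHEB (9169), TK1 (1290) and TUBB2B (949), and lowest for ACLY (9962). On the other GPI-PLD 12 h arrays, replicate 1 was lowest for EPHB4 (1030), replicate 3 highest for PML (718) and replicate 4 highest for TUBGCP4 (1750).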

How the results depend on the processing

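The count of genes with an interaction call, 1 in the main setting, was 0 after quantile normalization, after 75th percentile scaling, without the filter, with the mean of probe sets and with eBayes without trend and robust. It was 2 with 4 times the pseudocount, with the 60th percentile filter and without GPI-PLD 12 h replicates 2 and 4 together. Leaving out 1 array gave 0 to 3, with 3 without LacZ 6 h replicate 1, without GPI-PLD 6 h replicate 1 and without GPI-PLD 12 h replicate 2. Over all probe sets the count of 0 became 1 with eBayes without trend and robust, 5 without GPI-PLD 12 h replicates 2 and 4, and 0 to 1 without 1 array. The 2 opposite time calls became 1 after quantile normalization, after 75th percentile scaling, without the filter and without GPI-PLD 12 h replicates 2 and 4, 0 with eBayes without trend and robust, and 1 to 2 without 1 array. Without 1 array, genes at an unadjusted p under 0.05 numbered 498 to 714, time calls 390 to 637 in LacZ cells and 543 to 832 in GPI-PLD cells. Of 2875 values of 107 genes, 30 in 14 genes had the other sign, and none of these genes was called. With the mean of probe sets the values were 0.05 for EPHB4, 0.51 for FASN, -0.17 for GPLD1, -0.34 for MAFF, 0.00 for PLAUR, -0.43 for RPL35A, -0.21 for SEL1L, -0.05 for SLC7A1 and -0.41 for SMARCA1. GPLD1 was at -0.02 after quantile normalization. Without GPI-PLD 12 h replicates 2 and 4, ERP44 was at -0.02, IER2 at -0.10 and TUBB4A at -0.12. Without 1 array, EIF3B ran from -0.19 to 0.01, ERP44 from -0.07 to 0.13, GPLD1 from -0.20 to 0.32, IER2 from -0.03 to 0.18, MAFF from -0.07 to 0.07, MYC from -0.21 to 0.01 and TUBB4A from 0.00 to 0.61. The cause of these changes was not tested. The median of 20 of 39 lists kept its sign in all 26 alternatives. No paired analysis was possible because the labels give the arrays no replicate numbers. The number of arrays and the low signal of dim probe sets limit the precision.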
